A study of Mus musculus with 16 samples.

Results

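The passenger strands of 12 miRNA precursors were measured in mouse sciatic nerve, and each was set beside the guide strand of the same precursor. They were chosen by detection: a mouse name ending in a star qualified where the scanner software marked the miRNA as detected on at least 2 of the 4 arrays of any group. Starred names with any of 24 listed name beginnings were left out whatever their detection, and since the listed beginning miR-30 also matches miR-302 names, miR-302c*, which met the detection criterion, is not among the 12. The array held 115 mouse starred names among 650 miRNA names, 36 of the starred names were expressed by this criterion, and the 12 chosen were let-7b*, let-7d*, let-7f*, miR-10a*, miR-17*, miR-22*, miR-135a*, miR-150*, miR-191*, miR-433*, miR-674* and miR-877*. They were chosen on their measured detection, so their presence on the arrays is a description and not a result.

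Mutant nerves came from Dicer fl/fl Dhh-Cre+ mice and control nerves from their Dicer wt/fl Dhh-Cre+ counterparts, taken before birth (E17, embryonic day 17) or after it (p4, postnatal day 4). The floxed Dicer allele came from strain Dicer1tm1Bdh/J, which was crossed to Dhh-Cre mice. Each of the 4 groups held 4 mice with 1 Agilent one-colour array each, and mutants and controls were littermate pairs per the study's methods, although no label says which arrays form a pair. Controls also carried the Cre transgene and 1 floxed Dicer allele, and the Dhh promoter drives Cre in Schwann cells, so that other cells of the nerve keep Dicer in both genotypes. Total RNA of the whole nerve was hybridised, in which fewer cells of a type and less RNA per cell cannot be told apart. Both genotypes of an age shared a slide and a scan, whereas E17 and p4 were on different slides, and age therefore cannot be told apart from slide. The array measures no mRNA, so the deleted gene itself was not measured here.

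Dicer cuts a hairpin precursor into a short duplex of 2 strands. One strand, the guide, is kept by an Argonaute protein and directs it to target mRNAs, and the passenger strand is released and usually degraded. Both strands of a duplex come from the same cut, and older nomenclature marks the rarer strand with a star. Which strand is retained depends on the stability of the duplex ends and on the first base of the strand, and the share retained can differ between tissues.

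All 12 passenger strands were matched to mature sequences of RefSeq (GRCm38.p6) by their arm, and 11 of the 12 guides were matched; miR-150 was not. The deposited files hold no probe sequences. The passenger strands are shown in full because each probe reads this strand and not the precursor. Bases 2 to 8, the seed that pairs with targets, are in capitals.
let-7b*: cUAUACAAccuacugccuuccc
let-7f*: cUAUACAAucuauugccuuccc
let-7d*: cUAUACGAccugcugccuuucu
miR-17*: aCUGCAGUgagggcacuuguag
miR-191*: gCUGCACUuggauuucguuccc
miR-10a*: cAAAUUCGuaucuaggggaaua
miR-135a*: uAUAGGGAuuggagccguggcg
miR-150*: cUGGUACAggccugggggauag
miR-22*: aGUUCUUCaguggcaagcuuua
miR-433*: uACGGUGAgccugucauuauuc
miR-674*: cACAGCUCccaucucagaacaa
miR-877*: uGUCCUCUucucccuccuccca

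The 12 strands have 11 different seeds, all are 22 bases long, and 10 come from the 3p and 2 (miR-22* and miR-433*) from the 5p arm. Their first base is C in 6, U in 3, A in 2 and G in 1, and their share of G and C ranges from 36.4% in miR-10a* to 63.6% in miR-150*. The strands let-7b* and let-7f* share a seed and differ at 2 of 22 positions counted from the 5′ end (C9U and C13U, with let-7b* as the first base), whereas let-7d* differs from let-7b* at 4, of which A7G lies in the seed. Among all mature mouse sequences of the table, miR-17* is closest to miR-20b-3p and miR-10a* to miR-10b-3p, each with 3 differences. For 7 other strands the nearest sequence differs by 6 to 8 bases. Signals of let-7b*, let-7f*, miR-17* and miR-10a* are therefore uncertain as to the exact strand, and cross-hybridisation was not tested.

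In GRCm38.p6, let-7d* (chr13:48536024-48536045, minus strand) and let-7f* (chr13:48537833-48537854, minus strand) come from 1 cluster with Mirlet7a-1, and let-7b* (chr15:85707379-85707400, plus strand) lies in Lncppara with Mirlet7c-2 within 10 kb. The strand miR-17* (chr14:115043721-115043742, plus strand) belongs to the cluster of Mir18, Mir19a, Mir20a, Mir19b-1 and Mir92-1. Inside the annotated bounds of other genes lie miR-10a* (Hoxb3), miR-135a* (Glyctk and D030055H07Rik), miR-191* (Dalrd3), miR-22* (Mir22hg), miR-433* (Rtl1 and 6430411K18Rik, in the imprinted Dlk1-Dio3 region) and miR-877* (Abcf1). No other gene of the table spans Mir150 (chr7:45121798-45121819 for miR-150*, plus strand) or Mir674.

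Total signal per array, summed over miRNAs after background subtraction, ran from 36495 to 60374 for the controls and from 39097 to 50827 for the mutants at E17. At p4 it ran from 122860 to 154080 for the controls and from 56841 to 83630 for the mutants. The 12 passenger strands together made up a median of 0.439% (controls) and 0.452% (mutants) of it at E17, and of 0.196% and 0.288% at p4. Summed signals of miRNA lists named for cell types are given beside the results. They do not measure the make-up of the samples, because Dicer loss can itself lower miRNAs in cells still present. The Schwann cell list (miR-338-3p, miR-138, miR-30a and miR-204) was taken from miRNAs the study chose on these arrays and is not independent. That choice required higher signal with age in controls and lower signal in p4 mutants, so both directions were fixed in advance. All 4 were called lower in p4 mutants, with a median summed signal of 6310 in controls and 622.7 in mutants. An array that stood apart was replicate 2 of the p4 controls. On it miR-122, a liver miRNA, had a signal of 969.9 against at most 8.94 on the other p4 control arrays, miR-451 of red cells had 1716 against at most 355.1, and its mean correlation with the other arrays of its group was 0.964 against 0.983 to 0.992 for all other arrays. Results that rest on it are given with and without it.

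Most of these strands were dim. The log2 signal used below is quantile normalized across arrays, and the lowest value of any probe marked as well above background was between 6.20 and 6.55, depending on the array. Over the 48 combinations of a strand and a group, the brightest probe was well above background on no array in 24. Ordered from the dimmest by mean signal among 281 expressed miRNAs, miR-10a* stood at 3, miR-674* at 177 and miR-150* next below it among the 12. The other 9 stood between 28 and 98. Detection was met in all 4 groups by 3 strands, miR-22*, miR-433* and miR-674*. Detection is set for a miRNA over all its probes, so that miR-191* met the criterion in both control groups although its brightest probe was well above background on no array. The strand miR-10a* was detected only on 2 p4 control arrays, and let-7f* reached 2 arrays only in p4 mutants.

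**Figure D1:**
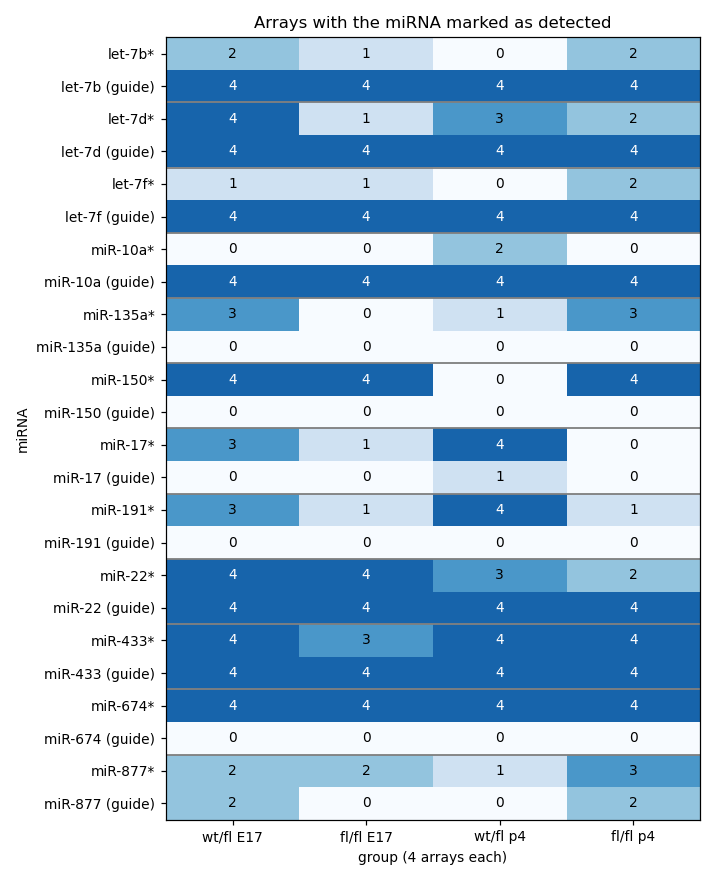
Number of arrays, of 4 in each group, on which the scanner software marked each passenger strand and its guide as detected (rows: miRNAs in pairs; columns: groups; darker cells: more arrays). The guides miR-135a, miR-150, miR-191 and miR-674 are at 0 in every group although their passenger strands were detected, and let-7b, let-7d, let-7f, miR-10a, miR-22 and miR-433 are at 4 in every group.

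The guides divided into 3 kinds. Guides of let-7b, let-7d, let-7f, miR-10a, miR-22 and miR-433 were detected on all 16 arrays. The guide miR-877 was detected on 2 E17 control and 2 p4 mutant arrays, and miR-17 on 1 p4 control array, so that miR-17 was not among the expressed miRNAs. The other 4 guides, miR-135a, miR-150, miR-191 and miR-674, were detected on no array. For 5 precursors the strand named as passenger was thus detected while the strand named as guide was not expressed by the same criterion. Because signals of different probes are not comparable in level, this says which strand was seen by its own probes and not which was more abundant.

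Just inside the criterion lay let-7b*, let-7f* and miR-10a*, whose best group had 2 detected arrays and whose highest background-subtracted signals were 14.9, 16.7 and 28.8. Just outside lay 9 starred names detected on at most 1 array of any group: let-7a*, let-7c-1*, miR-10b*, miR-19a*, miR-29a*, miR-130b*, miR-181a-1*, miR-200c* and miR-708*. Their highest signals were between 8.64 and 20.7, apart from 679.2 for miR-200c* on replicate 3 of the p4 mutants. A further 59 starred names outside the excluded groups were detected on no array.

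**Figure D2:**
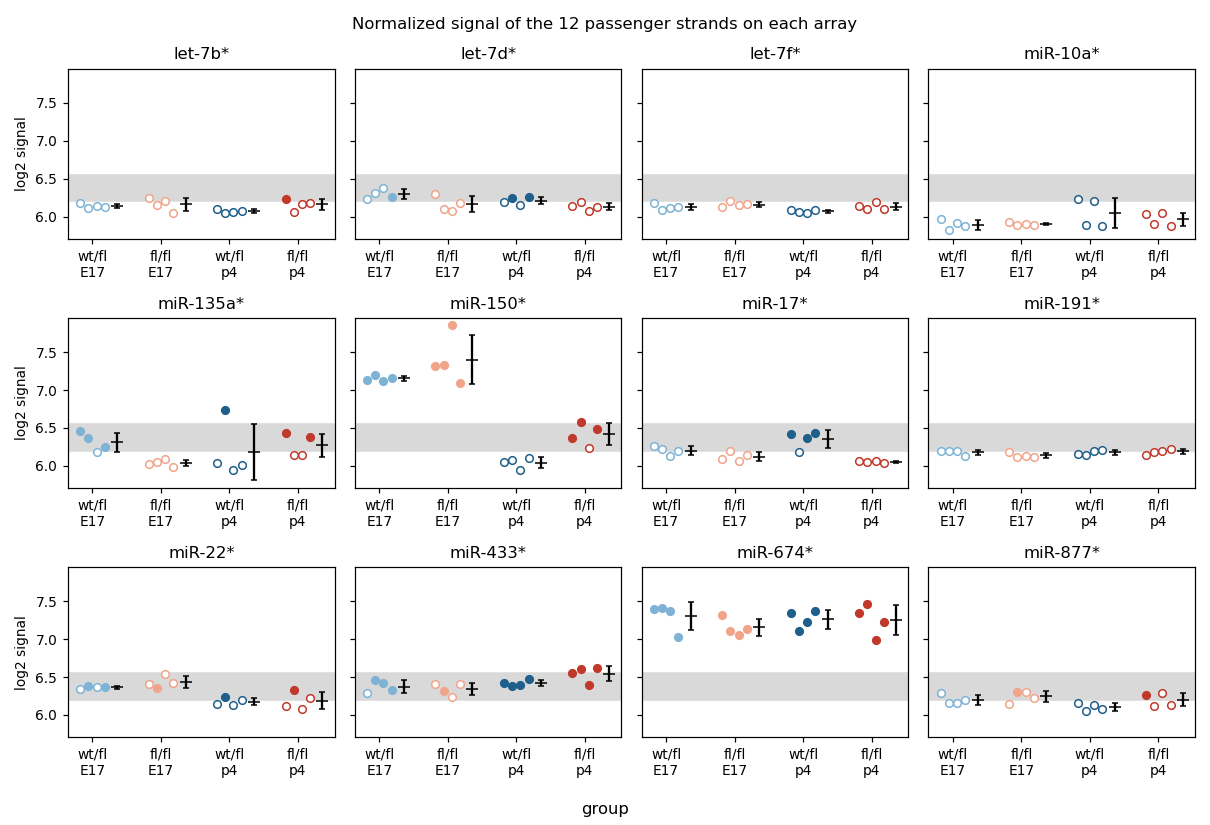
Log2 quantile-normalized signal of the brightest probe of each passenger strand (vertical axis) on each of the 16 arrays by group (horizontal axis), with filled points where that probe was well above background, open points where it was not, and black bars for mean ± SD of 4 arrays. The grey band is the range, over arrays, of the lowest signal well above background (6.20 to 6.55); miR-674* stands above it on all arrays, and miR-150* stands above it at E17, below it in p4 controls (mean 6.04) and around it in p4 mutants (mean 6.42).

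The effect of Dicer loss at p4 was tested with limma over all 681 probes of the 281 expressed miRNAs, and a probe was called where its Benjamini-Hochberg adjusted p was no higher than 0.05 and its log2 difference no smaller than 0.5 in size. Of all expressed miRNAs 21% were called, and of the 12 passenger strands 0 were called. At an unadjusted p below 0.05, limma found 3 (miR-17*, miR-150* and miR-433*) and the methods' t-test also 3. The share of all expressed miRNAs below this p is not given here or for the later comparisons. Such counts therefore do not set the 12 apart from other miRNAs. The median difference of the 12 was 0.04 on the log2 scale against 0.06 for all expressed miRNAs, with a range from -0.30 to 0.38. Scaling by the 75th percentile, under which the median of all expressed miRNAs was 0.47, called 11 of the 12 higher and 0 lower. Without normalization, under which that median was -0.19, 0 were higher and 1 (miR-674*) was lower. Differences below are quantile normalized unless stated otherwise, and some from other scalings are also given relative to the median of all expressed miRNAs.

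The strand miR-17* showed the smallest adjusted p at p4. It is the 3p strand of the first miRNA of its cluster, whose guide strands are known for promoting proliferation. Its precursor is shown with the measured strand in capitals, since guide and passenger lie on the same hairpin of 84 bases (chr14:115043671-115043754, plus strand, GRCm38.p6).
miR-17 precursor: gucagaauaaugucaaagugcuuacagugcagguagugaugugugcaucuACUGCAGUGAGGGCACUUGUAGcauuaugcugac
In p4 controls its log2 signal was 6.43, 6.19, 6.37 and 6.43 in replicates 1 to 4, and in p4 mutants 6.06, 6.04, 6.06 and 6.04. The groups did not overlap, and the lowest control was the array with the high miR-122 signal. Lack of overlap at p4 was found for 3 of the 12 strands, against 48.4% over the expressed miRNAs. The difference was -0.30 (SE 0.0499, limma adjusted p = 0.000203), below the limit of 0.5 for a call, and -0.36 without that array (adjusted p = 6.52e-06). No mutant array was well above background, so the controls were at least 1.05-fold higher. With background-subtracted signals the difference was -1.77 (adjusted p = 0.00024) and called.

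The background-subtracted total signal of miR-17* gives the same arrays on a linear scale: 28.7, 17.6, 25.3 and 26.9 in p4 controls and 4.27, 1.23, 4.79 and 0.932 in p4 mutants. At E17 the medians were 7.79 in controls and 6.05 in mutants. The E17 difference of the log2 signal was -0.08 (adjusted p = 0.323), both groups not well above background. The difference between the p4 and the E17 effect was -0.22 (adjusted p = 0.0499), also under the limit for a call. It also qualified for inclusion through the E17 controls, which are not in the p4 comparison. Under 75th percentile scaling the p4 difference had the opposite sign, 0.17, which is -0.29 relative to the median of all expressed miRNAs. The guide miR-17 was below the criterion for expression, with background-subtracted signals of 4.76 to 7.62 in p4 controls and -6.11 to -4.11 in p4 mutants, none of them well above background. The Schwann cell list and the total signal, given above, moved the same way in these samples, and their part in the difference was not tested.

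The strand miR-150* differed between p4 mutants and p4 controls by 0.38 (SE 0.121, adjusted p = 0.0215), which was also under the limit of 0.5. Its log2 signals were 6.05, 6.08, 5.94 and 6.10 in p4 controls and 6.37, 6.58, 6.24 and 6.49 in p4 mutants, and the groups did not overlap. None of the control arrays was well above background and 3 of the 4 mutant arrays were, so the mutants were at least 1.13-fold higher. It also qualified through both E17 groups. Without p4 control replicate 2 the difference was 0.39 (adjusted p = 0.0308). With background-subtracted signals it was 2.18 (adjusted p = 0.00121) and called. The summed signal of the leukocyte miRNAs had a median of 253.1 in p4 controls and 366.6 in p4 mutants, and that of the erythroid miRNAs 335.6 and 816.6. Of the leukocyte list 1 of 5, of the erythroid list 1 of 3, of the endothelial list 1 of 2 and of the fibroblast and smooth muscle list 3 of 5 were called higher in p4 mutants, and of the neuron list 1 of 4 and of the Schwann cell list 4 of 4 were called lower. Their part in the difference was not tested.

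The other strands at p4 gave no call, and on their brightest probes adjusted p-values from 0.0757 for miR-433* upwards. For let-7b* (0.114) and let-7f* (0.104) another probe passed the adjusted p, with a difference under the limit for a call. The strand miR-433* lay at 6.42 ± 0.0413 in controls and 6.55 ± 0.102 in mutants (SD, n = 4 each). The strand miR-674*, the brightest of the 12, lay at 7.26 ± 0.121 and 7.26 ± 0.199. On the linear scale before normalization, where p4 controls had more signal in total, miR-674* was 96.1 to 103.1 in the controls and 44.98 to 78.9 in the mutants. Its log2 difference was -0.51 without normalization and 0.15 under 75th percentile scaling, in both cases 0.32 below the median of all expressed miRNAs (-0.32 relative to it).

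The strand miR-135a* depended on a single p4 control array. Its background-subtracted signals in p4 controls were 2.21, 62.8, -0.738 and -0.836, and the array at 62.8 was replicate 2, the one with the high miR-122 signal. In p4 mutants they were 13.9, 3.86, 17.05 and 9.25. With all arrays the log2 difference was 0.09 (adjusted p = 0.621), and without that array it was 0.28 (adjusted p = 0.0105), still under the limit for a call. The guide miR-135a was detected on no array.

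At E17 the same test called 6.05% of the expressed miRNAs and 0 of the 12 passenger strands. At an unadjusted p below 0.05, limma found 1 (let-7d*, adjusted p = 0.094) and the methods' t-test also 1. The strand miR-135a* differed by -0.28 without overlap (adjusted p = 0.226), and the adjusted p was 0.0247 without p4 control replicate 2, which enters the fit through the shared spread. It was the 1 strand of the 12 without overlap at E17, against 24.9% over the expressed miRNAs. The strand let-7d* was detected on 4 of 4 control and 1 of 4 mutant arrays, with background-subtracted signals of 5.74 to 8.99 in controls and 4.31 to 5.69 in mutants. Its log2 signal was 6.30 ± 0.0648 in controls and 6.16 ± 0.103 in mutants (SD, n = 4 each), and the groups overlapped. The median difference of the 12 was -0.01, against -0.0043 for all expressed miRNAs. The strand miR-150* lay at 7.15 ± 0.032 in controls and 7.40 ± 0.322 in mutants, and its mutants spanned the controls, from 7.09 to 7.85 against 7.12 to 7.19.

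Age was the comparison in which a passenger strand was called. In controls 20.3% of expressed miRNAs were called between E17 and p4, and 1 of the 12 strands, miR-150*, was lower at p4. In mutants 10.7% were called, and again 1 of the 12, miR-150*, was lower. At an unadjusted p below 0.05, limma found 3 strands in either comparison. The ages did not overlap for 3 of the 12 in controls and 4 in mutants, against 43.4% and 29.9% over the expressed miRNAs. The median difference of the 12 was -0.06 in controls and -0.01 in mutants, against -0.02 and 0.03 for all expressed miRNAs. Under 75th percentile scaling, under which that median was -0.495 in controls, all 12 were called lower at p4 in controls, and without normalization, under which it was 0.57, 4 were called higher and 1 lower. The strand miR-150* was the one called lower under both.

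The strand miR-150* had log2 signals of 7.13, 7.19, 7.12 and 7.16 in E17 controls and 6.05, 6.08, 5.94 and 6.10 in p4 controls. Every p4 array lay below every E17 array. The difference was -1.11 (SE 0.121, adjusted p = 6.3e-06), and since no p4 control array was well above background, E17 was at least 1.88-fold higher. In mutants the signals were 7.32, 7.33, 7.85 and 7.09 at E17 and 6.37, 6.58, 6.24 and 6.49 at p4. That difference was -0.98 (SE 0.121, adjusted p = 4.05e-05), again without overlap. All 4 of its probes were called in both genotypes, and the 2 age effects differed by 0.13 (SE 0.171, adjusted p = 0.679).

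The fall of miR-150* was also present in the unnormalized total signal, although total signal was higher at p4. Background-subtracted values were 49.75 to 82.9 in E17 controls and 0.16 to 12.4 in p4 controls, and 51.6 to 111.2 in E17 mutants and 13.6 to 38.4 in p4 mutants. The guide miR-150, known from mature lymphocytes, was detected on no array. Of the leukocyte list (miR-223, miR-142-3p, miR-142-5p, miR-150 and miR-155) 3 of 5 were expressed and 0 were called with age, and its summed signal had a median of 113.9 in E17 and 253.1 in p4 controls, 164.1 and 366.6 in mutants. Total signal was also higher at p4, with a median of 50340 at E17 and 130560 at p4 in controls. Of the erythroid list (miR-451, miR-144 and miR-486) 2 of 3 were called lower with age in either genotype, with median sums of 1265 at E17 and 335.6 at p4 in controls, 3474 and 816.6 in mutants. In controls 3 of the 5 fibroblast and smooth muscle miRNAs and 1 of 4 in both the skeletal muscle and the neuron list were called lower with age, and all 4 Schwann cell miRNAs were called higher. In mutants 1 of 4 neuron and 2 of 4 Schwann cell miRNAs were called lower. The part of these lists in the result was not tested.

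**Figure D3:**
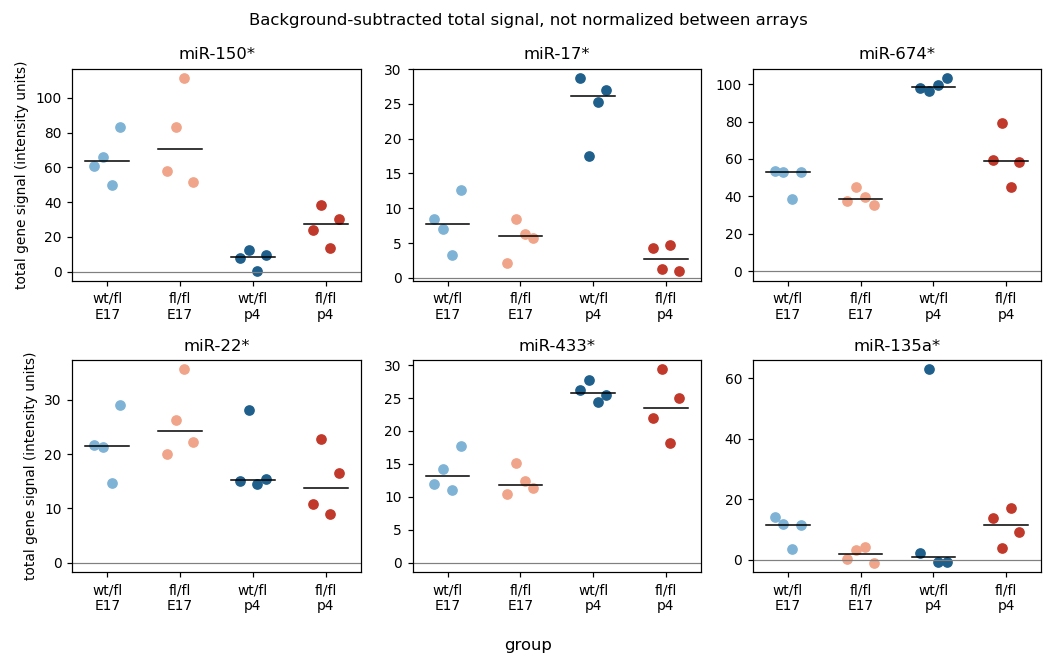
Background-subtracted total signal, not normalized between arrays, of 6 passenger strands (vertical axis, intensity units, own scale per panel) on each of 16 arrays by group (horizontal axis), with a line at each median of 4 arrays. The 4 p4 control values of miR-150* (at most 12.4) lie below all others of that strand, those of miR-17* (at least 17.6) lie above all others, and 1 p4 control array of miR-135a* stands at 62.8.

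With age, miR-17*, miR-22* and miR-433* passed the adjusted p in at least 1 genotype but not the size of a call. Without p4 control replicate 2, miR-135a* and miR-10a* did so too. In controls miR-135a* then differed by -0.32 (limma adjusted p = 0.00522, 0.496 with all arrays). There miR-10a* differed by 0.21 (adjusted p = 0.0348, 0.115 with all arrays). In mutants, where that array enters through the shared spread, miR-135a* differed by 0.23 (adjusted p = 0.0294, 0.259 with all arrays). The strand miR-17* differed by 0.15 in controls (SE 0.0499, adjusted p = 0.0245), with overlap, and by -0.07 in mutants (adjusted p = 0.363). The strand miR-22* had log2 signals of 6.34, 6.38, 6.37 and 6.37 in E17 controls and 6.14, 6.23, 6.13 and 6.20 in p4 controls, without overlap. The difference was -0.19 (SE 0.0513, adjusted p = 0.00978) in controls and -0.24 (adjusted p = 0.0029) in mutants. Without normalization the control difference was 0.22, which is -0.34 relative to the median of all expressed miRNAs. The strand miR-433* differed by 0.20 (adjusted p = 0.0148) in mutants and by 0.04 (adjusted p = 0.573) in controls, and the difference between these was 0.16 (adjusted p = 0.211).

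For the 7 precursors with both strands expressed, the difference between passenger and guide signal was taken on each array and compared between groups. It was fitted with limma over all 28 such pairs on the array. Scaling whole arrays by a constant leaves it unchanged, but quantile normalization is not a constant. Without it, 5 of the 7 pairs were called at p4 between genotypes and 5 with age in controls, against 1 and 2 with it. The guide strands that carry these comparisons are shown with their seeds in capitals.
let-7b: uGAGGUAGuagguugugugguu
let-7d: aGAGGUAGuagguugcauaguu
let-7f: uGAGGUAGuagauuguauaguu
miR-22: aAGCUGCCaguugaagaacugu
miR-433: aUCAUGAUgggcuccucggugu
The let-7 guides share 1 seed, the let-7 seed of targets that regulate growth and developmental timing, and theirs is unrelated to the seeds of their passenger strands printed above. The let-7 guides are also alike outside the seed, so their signals are uncertain as to the exact strand, and cross-hybridisation was not tested. The other pairs were miR-10a and miR-877.

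Of the 7 expressed guides, 1 was called lower at p4 in mutants (let-7f), 2 were called lower at E17 in mutants (let-7b and let-7d), 1 was called higher (miR-22) and 1 lower (miR-433) with age in controls, and 2 were called higher with age in mutants (let-7b and let-7d). Of all expressed miRNAs 21%, 6.05%, 20.3% and 10.7% were called in these comparisons, in the same order. The medians of the guides' differences were -0.25, -0.40, 0.11 and 0.12, against 0.06, -0.0043, -0.02 and 0.03 for all expressed miRNAs. Without normalization the guide medians were -1.05, -0.33, 1.81 and 1.1, against -0.19, 0.19, 0.57 and 0.12 for all expressed miRNAs.

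**Figure D4:**
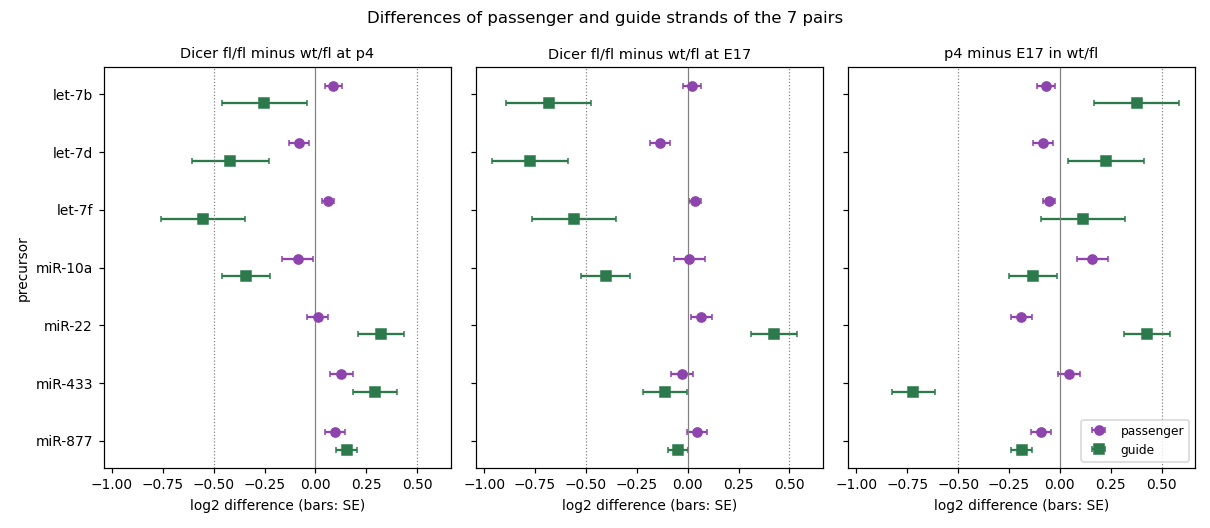
Log2 differences (horizontal axis) of passenger strands (purple circles) and guides (green squares) of 7 precursors (vertical axis) in 3 comparisons (genotype at p4, genotype at E17, age in controls), with bars for ± SE of the limma fit to 16 arrays and dotted lines at ±0.5. The passenger strands lie between -0.19 and 0.16 in all 3 panels, and the guides between -0.78 and 0.43.

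At p4, 17.9% of the 28 pairs were called between mutants and controls, and 1 of the 7, let-7f* with let-7f. The strand let-7f* met the detection criterion only through the p4 mutants, a group of this comparison, so its inclusion is not independent of it. The arm difference was less negative in mutants by 0.61 (SE 0.209, adjusted p = 0.0229). The guide signals were 12.6, 12.5, 12.1 and 12.5 in controls and 12.1, 12.2, 11.03 and 12.1 in mutants. The groups overlapped, and mutant replicate 3 was the lowest of all. The guide was lower by 0.55 (a difference of -0.55, SE 0.206, adjusted p = 0.0429), while let-7f* was not well above background on any of the 16 arrays and gives no fold. Without p4 mutant replicate 3 the arm difference was 0.32 (adjusted p = 0.0254), under the limit for a call, and without p4 control replicate 1 it was 0.57 (adjusted p = 0.0506).

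At E17, 10.7% of the 28 pairs were called, and these were the 3 let-7 pairs among the 7. Their guides have similar sequences, so the 3 calls may not be separate results. The arm difference changed by 0.70 for let-7b* (SE 0.211, adjusted p = 0.0306), 0.64 for let-7d* (SE 0.166, adjusted p = 0.0306) and 0.59 for let-7f* (SE 0.209, adjusted p = 0.0485). The guide let-7d had 11.2, 11.4, 11.5 and 11.03 in controls and 10.47, 10.49, 10.6 and 10.47 in mutants, without overlap, a difference of -0.78 (SE 0.188, adjusted p = 0.0197). The guide let-7b differed by -0.68 on its brightest probe (adjusted p = 0.0532) and was called on its other probe (-0.89). The guide let-7f differed by -0.56 (adjusted p = 0.0962). No E17 array had a let-7b* or let-7f* probe well above background and 1 control array had one of let-7d*. The changes of the arm difference at E17 thus hold the guides' change and a passenger signal near background.

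With background-subtracted signals none of the 3 was called, and the changes were 0.71 for let-7b* (adjusted p = 0.356), 0.015 for let-7d* (adjusted p = 0.98) and 0.99 for let-7f* (adjusted p = 0.077). The E17 calls were also sensitive to single arrays. Leaving out 1 array at a time gave 0 to 3 called pairs, with changes of 0.58 to 0.85 for let-7b*, 0.58 to 0.71 for let-7d* and 0.53 to 0.68 for let-7f*. The call of let-7b* was lost in 7 of 16 fits, without any E17 mutant array or E17 control replicate 1, 2 or 3. That of let-7d* was lost in 5, without E17 mutant replicate 1, 2 or 4 or E17 control replicate 1 or 3. That of let-7f* was lost in 12, without any E17 mutant array, E17 control replicate 1, 2 or 3, p4 control replicate 1, 2 or 4, or p4 mutant replicate 1 or 4. The p4 and E17 effects on the arm difference of let-7f differed by 0.02 (SE 0.296, adjusted p = 0.943), those of let-7b by -0.36 (adjusted p = 0.448) and those of let-7d by -0.30 (adjusted p = 0.439).

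**Figure D5:**
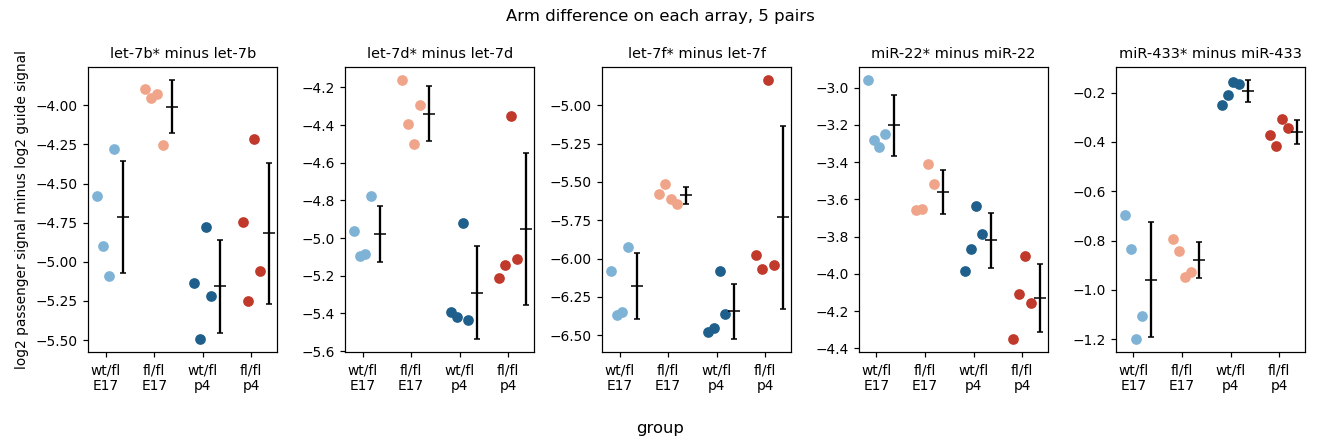
Log2 passenger minus log2 guide signal (vertical axis, own scale per panel) on each of 16 arrays by group (horizontal axis) for 5 precursors, with black bars for mean ± SD of 4 arrays. Only differences between groups can be read from it, since the 2 probes of a pair have no common scale; the miR-433 pair moves from -0.96 to -0.20 and the miR-22 pair from -3.20 to -3.82 between E17 and p4 controls.

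With age in controls, 21.4% of the 28 pairs were called, and 2 of the 7, miR-22* and miR-433*, in opposite directions. Their hairpins are shown with the passenger strand in capitals, because these are the 2 precursors whose passenger is on the 5p side (Mir22 at chr11:75463716-75463810 and Mir433 at chr12:109591715-109591838, both on the plus strand, GRCm38.p6).
miR-22 precursor: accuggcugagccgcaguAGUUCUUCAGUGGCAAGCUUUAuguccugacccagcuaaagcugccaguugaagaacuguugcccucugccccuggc
miR-433 precursor: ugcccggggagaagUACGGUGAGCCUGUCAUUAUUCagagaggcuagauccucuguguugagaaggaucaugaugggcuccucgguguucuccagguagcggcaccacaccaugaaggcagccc

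The miR-22 pair changed by -0.62 (SE 0.107, adjusted p = 0.000177), with arm differences of -3.20 ± 0.163 in E17 and -3.82 ± 0.148 in p4 controls (SD, n = 4 each). The guide had 9.30, 9.66, 9.69 and 9.62 at E17 and 10.1, 10.1, 9.77 and 9.98 at p4, without overlap. Its brightest probe differed by 0.43 (adjusted p = 0.00859) and the other probe, which was called, by 0.63, whereas miR-22* had moved by -0.19, as given above. Guide and passenger thus differed with age in opposite directions relative to the bulk of expressed miRNAs. The passenger was near background, its probe well above it on 2 of 4 E17 and 1 of 4 p4 control arrays. Without normalization both strands were higher at p4, the guide by 2.1 and the passenger by 0.22. For the pair, leaving out 1 array at a time gave -0.68 to -0.54, and its call was kept in all 16 fits. Between genotypes the same pair changed by -0.31 at p4 (adjusted p = 0.0229) and -0.36 at E17 (adjusted p = 0.0306), both under the limit for a call. Without normalization the guide differed by -0.74 at p4 and the passenger by -0.11, so that the pair's p4 change was positive. At E17 the guide then differed by 0.26 and the passenger by 0.27.

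The miR-433 pair changed by 0.76 (SE 0.0923, adjusted p = 5.13e-06), from -0.96 ± 0.234 in E17 to -0.20 ± 0.0447 in p4 controls (SD, n = 4 each). The guide had 6.98, 7.30, 7.62 and 7.43 at E17 and 6.68, 6.59, 6.55 and 6.64 at p4, without overlap, a difference of -0.72 (SE 0.106, adjusted p = 0.00011). The passenger had 6.29, 6.46, 6.42 and 6.33 at E17 and 6.43, 6.38, 6.40 and 6.47 at p4, and these overlapped. Which strand differed depended on the scaling. Without normalization the guide differed by -0.06 (limma adjusted p = 0.752) and the passenger by 0.54 (adjusted p = 0.00516). Relative to the median of all expressed miRNAs these differences were -0.63 and -0.03. Leaving out 1 array at a time gave 0.68 to 0.85, always called. The 2 probes of the guide disagreed: the brighter gave -0.72 and the other -0.05. With the mean of all probes of each strand the change was 0.41 (adjusted p = 2.77e-05), under the limit for a call.

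The remaining pairs were not called in any of these comparisons. The miR-10a pair changed by 0.41 at E17 (SE 0.135, adjusted p = 0.0367), under the limit, with a guide difference of -0.40 (adjusted p = 0.0445) and a passenger that no E17 array had well above background. In p4 controls miR-10a* had signals of 27.8 and 28.8 on replicates 1 and 3 and of -5.29 and -5.65 on replicates 2 and 4, so that it was detected on 2 arrays of a group and not on the other 2. The miR-877 pair, a precursor known as a mirtron that is spliced from its host intron, changed by at most 0.10 in size in the 3 comparisons, with the smallest adjusted p at 0.409, with the guide well above background on no array and the passenger on 2 of 16. The strands miR-191*, let-7b* and let-7f* stayed within 6.05 to 6.25 on every array.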

How the data were processed

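miRNA in 16 sciatic nerves was measured on Agilent one-colour (Cy3) mouse miRNA arrays. For each array the authors deposited the scanner output with the intensity of every spot, made with Agilent Feature Extraction (10.5.1.1) and not normalized between arrays. They also deposited a table of normalized intensities, used here as an alternative; its flags of presence and the other flags of the scanner (detected, well above background, outlier) are yes or no values in the deposited files.

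For the values given, median signals of spots were taken to log2, quantile normalized over the 13000 spots that are not controls and averaged per probe without spots marked as outliers. A miRNA is given by its brightest probe. Models (limma 3.58.1, R 4.3.3) covered 681 probes of 281 expressed miRNAs, or over 28 arm pairs, on all 16 arrays, with Benjamini-Hochberg adjustment. A miRNA was called where at least 1 probe was called and none the other way. Full values are given for each strand called in any comparison, with its guide; the other strands are described by the values that single them out, chosen after these were seen. In some comparisons a probe was well above background on no array of the lower group but on some of the higher. There the fold is given only as a bound ("at least"), taken from the lowest signal well above background on each array. The members and lists were chosen with earlier results of these data known. No spot was saturated, and precision is limited by how many arrays there were. Mutants and controls were littermate pairs per the study's methods, but no label gives the pairs, so the fits are unpaired. The fits were tested on simulated data for the p4 mutant comparison: of 200 probes changed by 1 on the log2 scale among 681, 99% were recovered. Changes of strands near background are compressed on this scale, so that share does not say how well they would be found. Old starred names were assigned to arms by nomenclature. Alternatives were other background corrections, scalings, filters, limits, the methods' t-test, the replicate block and leaving out each array; normexp (offset 50) on median signals was added after seeing the data.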

Additional observations from a re-analysis of the deposited data

Results flagged for a closer look

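In 3 of 48 combinations of a strand and a group of 4 arrays, 1 array stood far from the other 3; chance alone gives about 1 in 20. The signal of miR-135a* was 6.736 on p4 control replicate 2 against 5.939 to 6.035 on the other p4 controls, and this array also had the high miR-122 signal. On replicate 4 of the E17 controls, miR-191* was 6.133 against 6.195 to 6.197 and miR-674* was 7.028 against 7.374 to 7.414.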

How the results depend on the processing

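The age call of miR-150* was kept in all 14 alternatives in controls (-3.97 to -0.71) and in 13 of 14 in mutants (-2.20 to -0.65), and the called arm pairs kept their sign in every alternative run. Of the differences that were not called, miR-17* between genotypes at p4 went from -0.30 to 0.17 with 75th percentile scaling, and miR-22* with age in controls from -0.19 to 0.22 without normalization. The change of the miR-22 arm pair between genotypes at p4 also went from negative to positive without normalization. With background-subtracted signals, 3 passenger strands were called at p4 between genotypes (2 higher, 1 lower), 5 with age in controls (1 higher, 4 lower) and 4 with age in mutants (2 higher, 2 lower), and 0 arm pairs were called at E17 and 4 with age. Without normalization between arrays the counts were 1 at p4 and 5 with age in controls, with 5 arm pairs at p4 and 5 with age. With 75th percentile scaling they were 11 at p4, 12 with age in controls and 3 with age in mutants, with 5 arm pairs at p4 and 5 with age. Under that scaling the median of all expressed miRNAs was 0.467 at p4, -0.495 with age in controls and -0.299 with age in mutants. The share of all expressed miRNAs called under each alternative is not given here, so these counts are not read as results about the 12. The deposited normalized intensities gave 2 arm pairs at p4 and 5 with age. Without a filter on absent miRNAs 1 arm pair was called at E17, and with detection required on all 4 arrays of a group 0 at p4 and 1 at E17. A limit of 1 on the log2 difference left 0 passenger strands with age in mutants and 0 arm pairs at p4, at E17 and with age. With no limit the counts were 4 passenger strands at p4, 3 with age in controls and 3 with age in mutants, and 2 arm pairs at p4 and 5 at E17. The methods' t-test, unadjusted or adjusted, and a fit of the 8 arrays compared each gave 0 arm pairs at p4, and the mean of several probes gave 1 with age. The cause of these shifts was not tested. The normexp correction, added after seeing the data, moved no count by over 1.5 times. Normexp on mean signals was not run because the files hold median signals, nor was a slide block, since each genotype comparison lies within a slide.

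With the replicate block the counts were 0 at p4, 0 at E17, 1 with age in controls and 1 in mutants, and 1, 3 and 2 arm pairs, so it changed no call. The mice were littermate pairs per the study's methods, but the labels tie no number to a litter. Deviations of same-numbered samples correlated with r = -0.201, -0.519, -0.192 and 0.0901 at E17 and r = 0.171, -0.281, 0.459 and 0.164 at p4 for numbers 1 to 4, so that 3 of 4 at p4 and 0 of 4 at E17 were above 0.1, and the numbers were not taken as pairs. Leaving out each array in turn gave 0 to 0 passenger strands at p4 and at E17, 1 to 1 with age in either genotype, and 0 to 1, 0 to 3 and 2 to 3 arm pairs at p4, at E17 and with age. Most strands lay near background, where log2 differences are compressed and a change may not be detectable.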
